A study of Gallus gallus with 89 samples.

Results

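Within the CDX2-positive mesoderm of the chick amniogenic somatopleure, 22 single cells that detected GATA4 were set against 10 that did not, over all other genes. The cells were chosen by 9 genes and by the number of genes read, from 89 cells in all, of which 58 carry the prefix X09 in their titles and 31 the prefix X29. Only X09 cells were used. A gene was called detected in a cell at 10 CPM or more, CPM being the reads of a gene scaled so that every cell has the same total. Of the 58 X09 cells, 56 had at least 3000 genes with a read and 38 of those detected CDX2. At most 1 of the ectoderm genes CDH1, TFAP2A and CLDN3 was detected in 33 of them, and 32 of these also detected fewer than 3 of the endothelial genes CDH5, FLI1, KDR and LMO2. The 32 kept cells were split by detection of GATA4.

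All cells came from untreated wild-type chick embryos at embryonic day 1.5 (stage 10). Grafts of the amniogenic somatopleure, ectoderm and mesoderm together, were taken from more than 15 embryos, pooled and dissociated with trypsin. Cells were caught on a Fluidigm C1 array, a chip that isolates single cells in chambers, and full-length cDNA of each was sequenced. The labels do not say what X09 and X29 stand for, and they name no separate animals, so the pool is 1 sample. Cells are not replicates of a condition: no test was run, and SDs are over cells. Intervals around shares are 95% Clopper-Pearson intervals, which are exact and reflect counting error alone. The genes given with intervals below were chosen for their difference in share in these same cells. Their intervals do not allow for that choice, so a gap between the intervals of a gene is not a test.

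The lateral plate mesoderm splits into a somatic layer, which joins the ectoderm to form the body wall and the amnion, and a splanchnic layer, which makes the heart and the gut wall. GATA4 encodes a zinc finger transcription factor best known for its part in heart and endoderm development, where it acts with GATA5 and GATA6 and with the HAND factors. CDX2 encodes a homeobox factor of the posterior body axis that acts upstream of HOX genes.

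GATA4 and CDX2 chose the cells, so their levels are a description. GATA4 ranged from 10.5 to 367 CPM in the GATA4-positive cells, with a median of 94.4 CPM, and from 0 to 8.47 CPM in the GATA4-negative cells, with a median of 0.647 CPM. Just inside the limit stood cells with 10.5, 19.1 and 20.1 CPM, and just outside it cells with 8.47, 8.40 and 7.34 CPM. Of the GATA4-negative cells, 5 had no GATA4 read, 1 had 2 reads, and 4 had 9 to 20 reads, so 5 of the 10 carried GATA4 reads below the limit. In the 5 cells with no read, 3 reads would have equalled 1.44 to 2.39 CPM. That figure reflects read counting alone and leaves out transcripts lost before sequencing. A count of 0 therefore does not show that a cell lacked GATA4. CDX2 overlapped between the classes, with a median of 68.3 CPM (22.2 to 180 CPM) in GATA4-positive cells and 66.5 CPM (17.3 to 178 CPM) in GATA4-negative cells.

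GATA4-positive cells were 68.8% of the kept cells (22 of 32, interval 50.0 to 83.9%). None of the 6 X29 cells that passed the same filter detected GATA4, their highest level being 9.46 CPM. Of the 9 X09 cells that passed every criterion but CDX2 detection, 1 detected GATA4, at 40.2 CPM, and 6 had no GATA4 read. Whatever the prefixes stand for cannot be told apart from this difference between X09 and X29 cells.

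The classes differed in how many genes each cell showed. Total reads per cell ran from 827071 to 2155432 in GATA4-positive cells and from 1180591 to 2381723 in GATA4-negative cells, so by total reads the GATA4-negative cells were not the shallower ones. The number of genes with a read nevertheless had a median of 6092 (4648 to 9015) in GATA4-positive cells and 5254.5 (3421 to 8068) in GATA4-negative cells. More than 6200 genes were read in 11 GATA4-positive cells and in 1 GATA4-negative cell, and fewer than 4000 in no GATA4-positive cell and in 2 GATA4-negative cells. Genes at 10 CPM or more had a median of 4914 in GATA4-positive cells and 4224 in GATA4-negative cells. The mitochondrial share of reads overlapped, at 1.64 to 20.01% in GATA4-positive cells and 0.155 to 12.1% in GATA4-negative cells. The spike-in share of all reads had a median of 4.69% (1.79 to 14.7%) in GATA4-positive cells and 5.70% (2.52 to 16.5%) in GATA4-negative cells. The part of that share in the number of genes was not tested. Within the 22 GATA4-positive cells the GATA4 level did not go up with the number of genes read (Spearman's rho -0.37, a description over cells of 1 pool). Over all 32 kept cells the rho was 0.17.

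**Figure D1:**
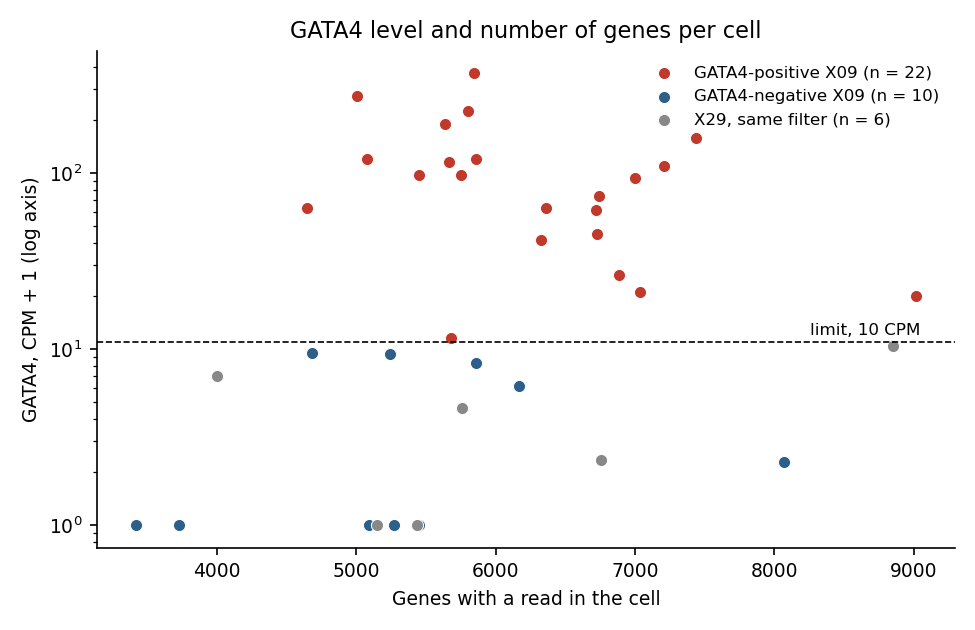
GATA4 level (CPM + 1, log axis) against the number of genes with a read in each cell, for 22 GATA4-positive and 10 GATA4-negative X09 cells and the 6 X29 cells that passed the same filter; the dashed line is the 10 CPM limit. The GATA4-negative cells reach further to the left, down to 3421 genes, and 4 of them lie close under the limit.

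Most kept cells carried several lateral plate mesoderm markers, as the name mesoderm used for them here asks. The 8 markers of that type (PRRX1, PDGFRA, CDH11, TWIST1, HAND1, HAND2, FOXF1 and VIM) summed to a median of 1788 CPM (927 to 2732 CPM) in GATA4-positive cells and 1629 CPM (337 to 2392 CPM) in GATA4-negative cells. CDH11 made up much of these sums, with means of 1045 CPM in GATA4-positive cells and 878 CPM in GATA4-negative cells. PDGFRA was the 1 of the 8 markers whose share differed by 20 points or more. It was detected in 14 of 22 GATA4-positive and 4 of 10 GATA4-negative cells. Few cells detected TWIST1 (6 of 22 GATA4-positive and 1 of 10 GATA4-negative) or FOXF1 (2 of 22 and 2 of 10). The lowest sum, 337 CPM, belonged to the GATA4-negative cell X09_C21, which went against the name mesoderm. X09_C21 detected 2 of the 8 markers, HAND1 at 32.7 CPM and VIM at 304 CPM, and had no read of PRRX1, CDH11, HAND2 or GATA5. In the same cell the ectoderm regulator TFAP2A stood at 101 CPM, the epithelial adhesion gene EPCAM at 268 CPM and the tight junction gene CLDN1 at 3383 CPM. It passed the filter with 1 ectoderm gene and CDX2 at 17.3 CPM, the lowest of the 32 cells.

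Without X09_C21 the lateral plate markers summed to 1233 to 2392 CPM in the other 9 GATA4-negative cells, inside the range of the GATA4-positive cells. Both GATA4-negative cells under 4000 genes stood apart from the rest: X09_C21 with 3728 genes, and X09_C38 with 3421 genes and 0.155% mitochondrial reads. CDH11, a mesenchymal cadherin, stood at 437 CPM or more in every GATA4-positive cell, against 19.1 CPM in X09_C38, which carried PRRX1 at 402 CPM. X09_C38 also held the ectoderm marker TP63 at 321 CPM, against at most 61.6 CPM in GATA4-positive cells. Where leaving out one of these cells ended a call of a named gene, that is said beside it.

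Ectoderm markers were not confined to that cell. The GATA4-positive cell X09_C01 held EPCAM at 1118 CPM and CLDN1 at 1854 CPM beside CDH11 at 437 CPM. It had 9015 genes with a read, the most of the kept cells. Of 9 ectoderm markers in the data, the GATA4-positive cells X09_C44, X09_C01 and X09_C09 detected 6, 5 and 5, and X09_C21 4. The GATA4-positive cell X09_C20 and the GATA4-negative cell X09_C25 also detected 4. Of the 8 lateral plate markers X09_C44, X09_C01 and X09_C09 detected 6, 5 and 5, X09_C20 6, X09_C25 7 and X09_C21 2. TFAP2A was detected in 3 of 22 GATA4-positive cells and 1 of 10 GATA4-negative cells. KRT19, a keratin of simple epithelia listed as an ectoderm marker, was detected in every kept cell of both classes, at 1162 to 5323 CPM in GATA4-positive cells and 1001 to 5883 CPM in GATA4-negative cells. Of the 12 endothelial markers found in the data, CDH5, TAL1 and CLDN5 (cldn5 in the table) were at 0 in all kept cells, and the list summed to 0 to 408 CPM in GATA4-positive cells and 0.796 to 165 CPM in GATA4-negative cells. Of the 12, 5 were detected in a larger share of GATA4-positive cells, 3 in a larger share of GATA4-negative cells and 4 in equal shares. CDH5, FLI1, KDR and LMO2 are among the 12 and helped to choose the cells, so their part in these counts is a description. The 1 with a difference of 20 points or more was PECAM1, an endothelial adhesion gene named after its value was seen, which was detected in 7 of 22 GATA4-positive cells and 1 of 10 GATA4-negative cells. The 8 cardiomyocyte markers in the table summed to 0 to 302 CPM in GATA4-positive cells and 0 to 502 CPM in GATA4-negative cells, with NKX2-5 at 0 in all. MYL2 was detected in 13 of 22 GATA4-positive and 4 of 10 GATA4-negative cells, and NPPA in 10 of 22 and 4 of 10. No cardiomyocyte marker differed in share by 20 points or more in either direction. The 4 endoderm markers summed to 0 to 479 CPM in GATA4-positive cells and 0 to 419 CPM in GATA4-negative cells, with SOX17 at 0 in all. APOA1, of the same list, was detected in 19 of 22 GATA4-positive and 8 of 10 GATA4-negative cells. The markers of blood, of splanchnic, paraxial and intermediate mesoderm, of the proepicardium and of neural tissue summed to medians below 1 CPM in both classes. Many listed markers are missing from the data. Found were 2 of 4 for proepicardium, 3 of 8 for paraxial mesoderm, 2 of 4 for intermediate mesoderm and 3 of 7 for neural tissue. In single cells the sums reached 176 CPM (paraxial, GATA4-positive) and 200 CPM (neural, GATA4-negative). HBA1, of the blood list, was detected in 0 of 22 GATA4-positive and 2 of 10 GATA4-negative cells. The 3 germ cell markers summed to a median of 60.5 CPM in GATA4-positive cells and 42.9 CPM in GATA4-negative cells. Their highest sum, 1262 CPM, was in a GATA4-positive cell. Pou5f3, of the same list, was detected in 20 of 22 GATA4-positive and 8 of 10 GATA4-negative cells. The part of these lists in the results was not tested.

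The regulators that GATA4 is known to work with overlapped between the classes. GATA5 ranged from 57.3 to 580 CPM in GATA4-positive cells, with a median of 318 CPM, and from 0 to 730 CPM in GATA4-negative cells, with a median of 430 CPM. It was detected in 22 of 22 GATA4-positive and 9 of 10 GATA4-negative cells, and the cell without it was X09_C21, without which the lowest GATA4-negative cell had 225 CPM. GATA6 had a median of 63.02 CPM (0 to 160 CPM) in GATA4-positive cells and 30.6 CPM (0 to 190 CPM) in GATA4-negative cells, and was detected in 21 of 22 GATA4-positive and 7 of 10 GATA4-negative cells. The ranges of both genes overlapped over most of their length.

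The HAND factors, basic helix-loop-helix regulators of heart, limb and body wall, overlapped as widely. HAND1 was detected in all 32 cells, with a mean of 77.1 ± 32.8 CPM in GATA4-positive cells and 87.97 ± 53.2 CPM in GATA4-negative cells (SD over cells). HAND2 averaged 146 ± 63.97 CPM in GATA4-positive cells and 166 ± 83.2 CPM in GATA4-negative cells. Without X09_C21, HAND2 was detected in every cell of both classes, with a lowest GATA4-negative value of 60.99 CPM. PRRX1, a homeobox factor of limb and body wall mesenchyme, averaged 312 ± 189 CPM in GATA4-positive cells and 313 ± 193 CPM in GATA4-negative cells.

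The MSX homeobox genes, known targets of BMP signals, had higher means in GATA4-negative cells, below the 2-fold limit used further on. MSX1 averaged 2260 ± 822 CPM in GATA4-positive cells and 2961 ± 1534 CPM in GATA4-negative cells, and MSX2 278 ± 211 CPM in GATA4-positive cells and 463 ± 333 CPM in GATA4-negative cells. Both ranges overlapped. PITX1, a factor of hindlimb and posterior lateral plate, was detected in 18 of 22 GATA4-positive cells and 9 of 10 GATA4-negative cells. Across all 32 cells the rank correlation of GATA4 with GATA5, GATA6, HAND1, HAND2, PRRX1 and MSX1 lay between -0.14 and 0.12, and within the 22 GATA4-positive cells that with GATA5 was 0.39. These are descriptions over cells of 1 pool that share read depth.

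**Figure D2:**
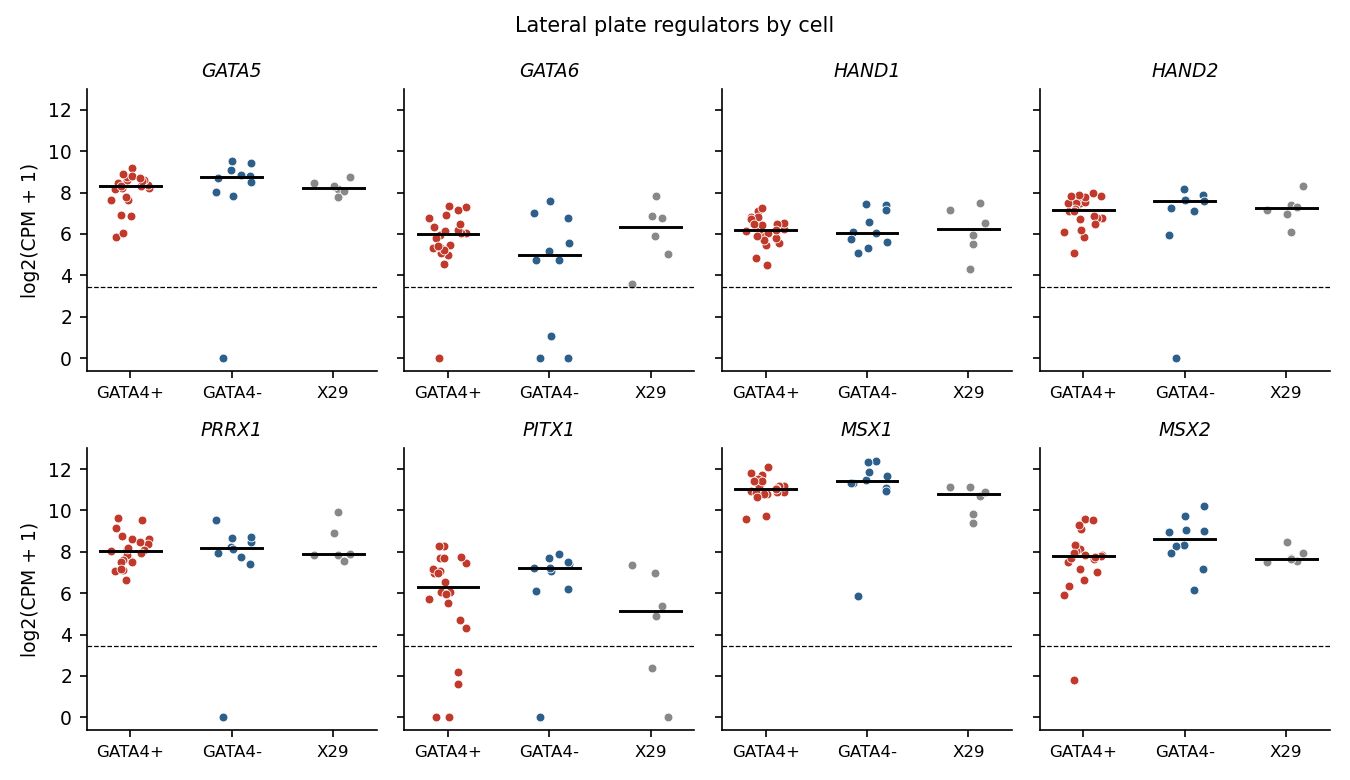
Level of 8 lateral plate regulators (log2 of CPM + 1) in each GATA4-positive (22), GATA4-negative (10) and X29 (6) cell; bars are medians and the dashed line is the 10 CPM limit. In each panel the GATA4-positive and GATA4-negative cells overlap, and 1 GATA4-negative cell, X09_C21, lies at 0 for GATA5, HAND2, PRRX1 and PITX1.

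To find other differences, a rule of size was used in place of a test. A gene met it when its mean was at least 2 times higher in one class (1 CPM added to each mean) and the share of cells that detected it at least 40 percentage points higher. Of 8676 genes measured, that is detected in at least 10% of the 32 cells, 191 met it as higher in GATA4-positive cells (2.2%) and 13 as higher in GATA4-negative cells (0.15%). No measured gene had ranges that did not overlap between the classes. The rest of the table leaned the same way as the split: 66.7% of measured genes were detected in a larger share of GATA4-positive cells and 24.6% in a larger share of GATA4-negative cells, with a median difference of 7.27 points. The median log2 fold of all measured genes was 0.05.

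**Figure D3:**
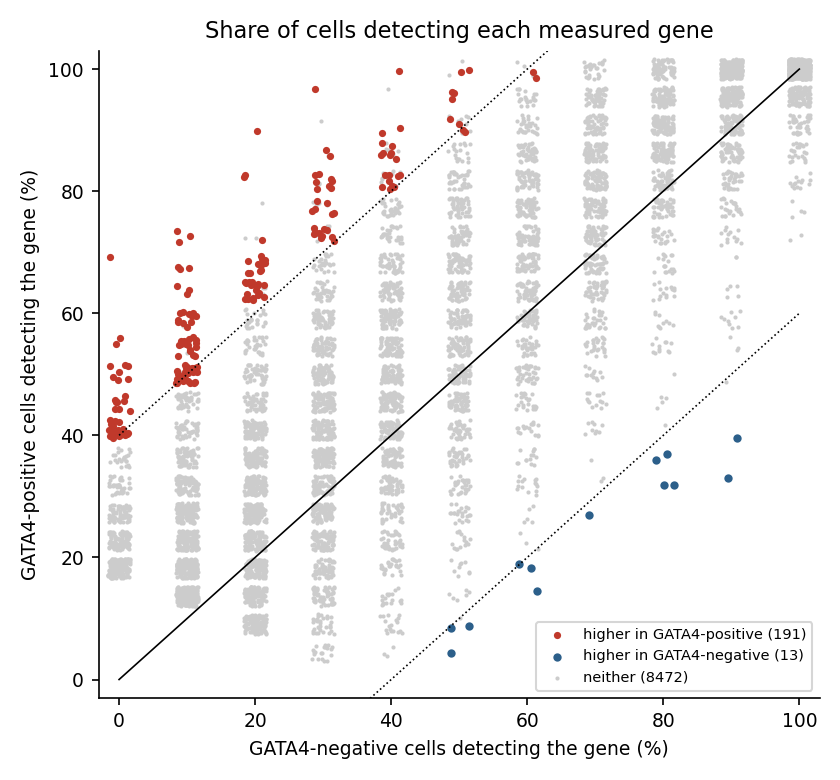
Share of GATA4-positive cells (vertical, %) against share of GATA4-negative cells (horizontal, %) that detected each of 8676 measured genes, with small random shifts so that points do not hide each other; the solid line marks equal shares and the dotted lines a difference of 40 points. The 191 genes higher in GATA4-positive cells lie along the left, the 13 higher in GATA4-negative cells at the lower right, and the grey cloud lies mostly above the solid line.

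An alternative gave each cell the same number of detected genes, its 2912 highest. This makes the mean share over all genes equal in both classes by construction. It shapes the median difference of 0 points there and the counts in both directions without fixing them, so neither bears on the lean. On that footing 41 of 5709 measured genes met the rule as higher in GATA4-positive cells (0.718%) and 38 as higher in GATA4-negative cells (0.666%). Of the 191 genes, 25 also met it there, and of the 13, 3 did. With only cells of 4000 or more genes, which leaves out X09_C21 and X09_C38, 168 genes met the rule as higher in GATA4-positive cells and 47 as higher in GATA4-negative cells, 105 of them among the 191 and 11 among the 13. There the median difference was 2.27 points. Without X09_C21 alone, 170 genes were higher in GATA4-positive cells and 21 in GATA4-negative cells, and without X09_C38 alone 169 and 20. Of the 191 genes, 55 lost the call without X09_C21 and 54 without X09_C38, and of the 13, 2 did in each case. With any 1 of the 32 cells left out, 106 of the 191 and 6 of the 13 met the rule. Leaving out 1 cell moved the fold by more than 1.5 times in 148 of the 191 and 5 of the 13. Both these conditions, equal numbers of detected genes and any 1 cell left out, were met by 16 of the 191 and 2 of the 13.

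**Figure D4:**
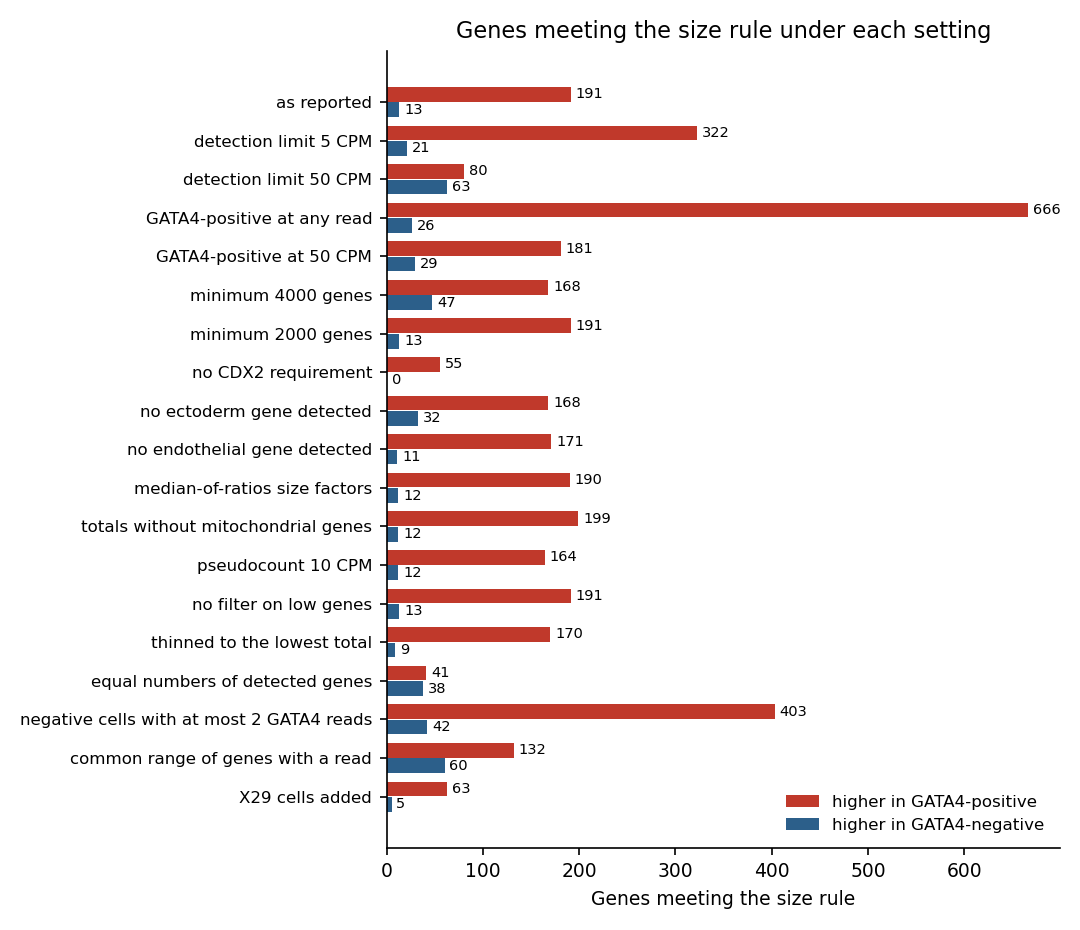
Number of genes meeting the size rule as higher in GATA4-positive cells (upper bar) or in GATA4-negative cells (lower bar) as reported and under each alternative. The counts are 191 and 13 as reported and 41 and 38 with equal numbers of detected genes.

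The genes that met both conditions included DPYSL2, DNAJC11, CAAP1, PLAA, OLFM1, RLIM, DNAJC10, BRMS1L, ACSL1, RIF1, BPGM, FAM172A, WDR4 and UBE2D1. Those outside the 15 genes described next were singled out after their values were seen. The genes named include no lateral plate regulator from the lists used here.

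OLFM1, which encodes a secreted olfactomedin glycoprotein, had the largest difference in share among the genes with a symbol, though not the largest fold. It ranged from 0 to 283 CPM in GATA4-positive cells, with a median of 62.2 CPM, and from 0 to 117 CPM in GATA4-negative cells, with a median of 0 CPM. It was detected in 20 of 22 GATA4-positive cells (90.9%, interval 70.8 to 98.9%) and 2 of 10 GATA4-negative cells (20%, interval 2.52 to 55.6%), a mean 5.17 times higher in GATA4-positive cells. Without X09_C11, a GATA4-negative cell at 117 CPM, the mean was 15.4 times higher. Most GATA4-positive cells lay above 8 of the 10 GATA4-negative cells, although the ranges overlapped. The X29 cells, none of which detected GATA4, detected OLFM1 in 4 of 6.

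ACSL1, which encodes a long-chain acyl-CoA synthetase that activates fatty acids, was detected in 15 of 22 GATA4-positive cells (68.2%, interval 45.1 to 86.1%) and in 0 of 10 GATA4-negative cells (interval 0 to 30.8%). Its values ran from 0 to 460 CPM with a median of 56.4 CPM in GATA4-positive cells, and 9 of the 10 GATA4-negative cells had no read, the other standing at 5.14 CPM. The 7 GATA4-positive cells below the limit overlapped with them. In X29 cells, which all lacked GATA4 above the limit, it was detected in 3 of 6.

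DNAJC10, which encodes a disulphide reductase of the endoplasmic reticulum, was detected in all 22 GATA4-positive cells, at 17.7 to 458 CPM, and in 4 of 10 GATA4-negative cells, at a median of 0 CPM. The mean was 2.45 times higher in GATA4-positive cells, and 4.86 times without X09_C80, a GATA4-negative cell at 341 CPM. All 4 detecting GATA4-negative cells had 4000 or more genes. Among cells with that many the mean was 1.97 times higher and the share 50 points higher, so DNAJC10 missed the 2-fold limit. COL4A1, a collagen chain of basement membranes, averaged 81.7 ± 92.1 CPM in GATA4-positive cells and 19.03 ± 39.7 CPM in GATA4-negative cells, with detection in 21 of 22 GATA4-positive and 3 of 10 GATA4-negative cells. The GATA4-negative mean was 7.16 CPM without X09_C21, with detection in 2 of 9, and the fold was 10.1 in place of 4.13. COL4A1 met the rule with any 1 cell left out but not with equal numbers of detected genes. Its partner chain COL4A2 was detected in 6 of 22 GATA4-positive cells and 1 of 10 GATA4-negative cells and did not meet the rule.

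The other 11 of the 15 genes with the largest differences in share are given here by the number of cells that detected them. ISCU, a scaffold for iron-sulphur clusters, and SGPL1, which breaks down sphingosine-1-phosphate, were each detected in 18 of 22 GATA4-positive cells and 2 of 10 GATA4-negative cells. UBE2R2, a ubiquitin-conjugating enzyme, and SLC39A10, a zinc importer, were each detected in 19 of 22 GATA4-positive and 3 of 10 GATA4-negative cells. FAM135A and TESC, a calcium-binding protein, were detected in 16 of 22 GATA4-positive and 1 of 10 GATA4-negative cells, and RLF, USP45 (a deubiquitinase) and GUSB (a lysosomal glucuronidase) in 15 of 22 GATA4-positive and 1 of 10 GATA4-negative cells. ALG6, which builds the sugar chain for N-glycosylation, and TERF1, a telomere-binding protein, were detected in 12 of 22 GATA4-positive cells and 0 of 10 GATA4-negative cells. None of these 11 met the rule with equal numbers of detected genes, TESC and TERF1 not being measured there, though all 11 met it with any 1 cell left out. Among cells with 4000 or more genes, UBE2R2 (1.98 times) and SLC39A10 (1.86 times) fell below the 2-fold limit.

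**Figure D5:**
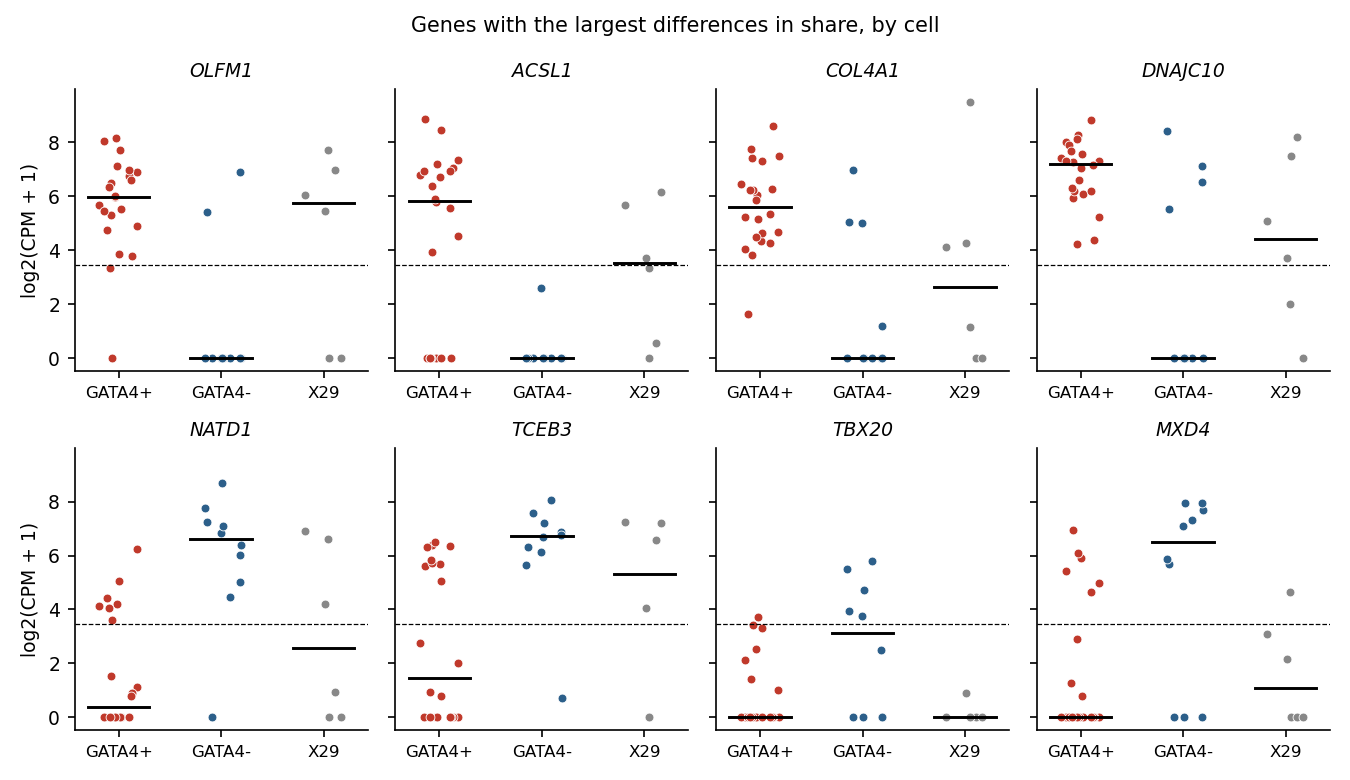
Level (log2 of CPM + 1) of 4 genes higher in GATA4-positive cells (upper row) and 4 higher in GATA4-negative cells (lower row), in each GATA4-positive (22), GATA4-negative (10) and X29 (6) cell; bars are medians and the dashed line is the 10 CPM limit. In every panel the ranges of both classes overlap, and the medians of OLFM1, ACSL1, COL4A1 and DNAJC10 in GATA4-negative cells are at 0.

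All 13 genes higher in GATA4-negative cells carry a symbol. NATD1, a gene with an N-acetyltransferase-like domain, ranged from 0 to 73.8 CPM in GATA4-positive cells, with a median of 0.359 CPM, and from 0 to 414 CPM in GATA4-negative cells, with a median of 98.0 CPM. It was detected in 7 of 22 GATA4-positive cells (31.8%, interval 13.9 to 54.9%) and 9 of 10 GATA4-negative cells (90%, interval 55.5 to 99.7%), a mean 12.7 times higher in GATA4-negative cells. The single GATA4-negative cell without it was X09_C21. TCEB3, which encodes the elongation factor subunit elongin A, averaged 26.3 ± 33.7 CPM in GATA4-positive cells and 112 ± 74.1 CPM in GATA4-negative cells, with detection in 9 of 22 GATA4-positive and 9 of 10 GATA4-negative cells. NATD1 and TCEB3 were the 2 of the 13 that met both conditions above.

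MXD4, a MAX-binding repressor that opposes MYC, was detected in 6 of 22 GATA4-positive cells and 7 of 10 GATA4-negative cells, a mean 6.46 times higher in GATA4-negative cells. It met the rule with equal numbers of detected genes, and in 25 of the 32 sets with 1 cell left out. With a detection limit of 5 CPM the direction of its share turned, and the value stands with the alternatives. That limit also applied to GATA4, so GATA4-negative cells with 5 CPM or more of GATA4 became GATA4-positive (27 and 7 cells). THEM4, a thioesterase, and the linker histone gene HIST1H103 were each detected in 7 of 22 GATA4-positive cells and 8 of 10 GATA4-negative cells. SPSB4 and the deubiquitinase gene USP5 were detected in 8 of 22 GATA4-positive and 8 of 10 GATA4-negative cells, and SMPD2, a neutral sphingomyelinase, in 3 of 22 GATA4-positive and 6 of 10 GATA4-negative cells. ASTN2 and MOCS3 were detected in 4 of 22 GATA4-positive and 6 of 10 GATA4-negative cells, and OSBPL11 and the mRNA decay factor ZFP36L1 in 2 of 22 GATA4-positive and 5 of 10 GATA4-negative cells. Of the GATA4-negative cells, 6 had at most 2 GATA4 reads and 4 had more. Among those 6 and 4, SMPD2 and MOCS3 were detected in 2 and 4, MXD4 in 3 and 4. OSBPL11 was detected in 2 and 3, THEM4 and SPSB4 in 4 and 4. HIST1H103 and USP5 were detected in 5 and 3, ASTN2 in 4 and 2, ZFP36L1 in 3 and 2. With any GATA4 read called positive, the direction of share turned for SMPD2, MXD4, MOCS3 and OSBPL11.

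Some of these calls rested on single GATA4-negative cells, and not only on those that stood apart. With 1 cell left out, ASTN2 and MOCS3 met the rule in 26 of the 32 sets. ZFP36L1 and OSBPL11 met it in 27 and HIST1H103 in 31. Without X09_C21, ASTN2 was detected in 5 of 9 and ZFP36L1 in 4 of 9 GATA4-negative cells, and neither met the rule. Without X09_C38, MOCS3 was detected in 5 of 9 GATA4-negative cells and did not meet it. HIST1H103 was 2.83 times higher in GATA4-negative cells, and 1.25 times without X09_C38, which held 321 CPM, so that it no longer met the rule.

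TBX20, a T-box factor known for heart development, was the 1 lateral plate regulator to meet the rule. It ranged from 0 to 12.1 CPM in GATA4-positive cells, with detection in 1 of 22 (4.55%, interval 0.115 to 22.8%), and from 0 to 55.002 CPM in GATA4-negative cells, with detection in 5 of 10 (50%, interval 18.7 to 81.3%). No read was found in 15 of the 22 GATA4-positive cells and 4 of the 10 GATA4-negative cells, and the 5 detecting GATA4-negative cells held 12.5 to 55.002 CPM. Of these, 3 were among the 4 GATA4-negative cells with more than 2 GATA4 reads. It met the rule in 27 of 32 sets with 1 cell left out and was not among the measured genes with equal numbers of detected genes. No X29 cell and none of the 9 CDX2-undetected X09 cells detected it.

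The counts that follow are for lists of genes, and each is to be read against the 2.2% of all measured genes that met the rule as higher in GATA4-positive cells and the 0.15% that met it as higher in GATA4-negative cells. Over the 17 lists, 7 of 449 measured genes (1.56%) were higher in GATA4-positive cells and 1 (0.223%) in GATA4-negative cells. At these shares a list of the sizes given below has about 1 call or none, so a count of 0 or 1 sets no list apart from all genes.

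The other factors on the list of lateral plate regulators did not meet the rule. The table holds 41 of the listed factors, and 30 of them were measured. Of these 1 met it as higher in GATA4-negative cells and 0 as higher in GATA4-positive cells. NKX2-5, the early heart factor, and OSR1, a factor of intermediate mesoderm, were at 0 in all 32 cells, and ISL1, a factor of the second heart field, was detected in 2 of 22 GATA4-positive cells and 0 of 10 GATA4-negative cells. FOXF1, a marker of splanchnic mesoderm, was detected in 2 of 22 GATA4-positive and 2 of 10 GATA4-negative cells. The mesenchymal repressors ZEB1 and ZEB2 were detected in 20 of 22 (ZEB1) and 15 of 22 (ZEB2) GATA4-positive cells and in 6 of 10 (ZEB1) and 4 of 10 (ZEB2) GATA4-negative cells. TBX5, a forelimb and heart factor, was detected in 6 of 22 GATA4-positive and 2 of 10 GATA4-negative cells. NR2F2, a nuclear receptor, was detected in 1 of 22 GATA4-positive cells, at 11.2 CPM, and in 3 of 10 GATA4-negative cells, of which X09_C38 held 365 CPM.

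HOX and CDX genes, which set position along the body axis, had 0 of 18 measured genes past the rule, beside 2.2% and 0.15% of all genes. Of these, 7 were detected in a larger share of GATA4-positive cells and 11 in a larger share of GATA4-negative cells, with a median difference of -4.09 points beside 7.27 for all genes. HOXB5 averaged 457 ± 288 CPM in GATA4-positive cells and 412 ± 299 CPM in GATA4-negative cells, and CDX4 270 ± 201 CPM in GATA4-positive cells and 291 ± 225 CPM in GATA4-negative cells. The retinoid list had 0 of 7 measured genes past the rule. ALDH1A2, which makes retinoic acid, was detected in 16 of 22 GATA4-positive cells (median 147 CPM) and 9 of 10 GATA4-negative cells (median 208 CPM).

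In the BMP and TGF-beta list 0 of 29 measured genes met it. The BMP antagonist BAMBI was detected in all 32 cells, at 1323 ± 632 CPM in GATA4-positive cells and 1270 ± 380 CPM in GATA4-negative cells, and the BMP response gene ID2 at 373 ± 180 CPM in GATA4-positive cells and 356 ± 259 CPM in GATA4-negative cells. BMP4 was detected in 12 of 22 GATA4-positive cells and 8 of 10 GATA4-negative cells, and BMP5 in 19 of 22 GATA4-positive and 6 of 10 GATA4-negative cells. With equal numbers of detected genes 1 member met the rule as higher in GATA4-positive cells. In the WNT list 1 of 27 met it, the receptor gene FZD6, in 14 of 22 GATA4-positive cells and 2 of 10 GATA4-negative cells. In the FGF list it was 0 of 12, and in the hedgehog and Notch list 0 of 15.

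Growth factor and chemokine genes had 1 of 25 (4%) past the rule, beside 2.2% of all genes: ACKR3, a scavenger receptor for CXCL12, in 18 of 22 GATA4-positive cells and 4 of 10 GATA4-negative cells. Guidance genes had 1 of 23 (4.35%), SLIT3, a secreted ligand of ROBO receptors, in 20 of 22 GATA4-positive and 5 of 10 GATA4-negative cells. SLIT3 also met the rule with equal numbers of detected genes. Neither gene met it without X09_C21, nor without X09_C38. Without X09_C21 the counts were 18 of 22 GATA4-positive against 4 of 9 GATA4-negative cells for ACKR3 and 20 of 22 against 5 of 9 for SLIT3.

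Matrix genes had 1 of 47 (2.13%) past the rule, COL4A1, a share close to the 2.2% of all genes. The fibrillar collagen gene COL3A1 was detected in 21 of 22 GATA4-positive cells and 9 of 10 GATA4-negative cells, and SPARC, a collagen-binding matrix protein, in all 32. HAS2, which makes hyaluronan, was detected in 12 of 22 GATA4-positive cells and 9 of 10 GATA4-negative cells, with means of 67.6 CPM in GATA4-positive cells and 199 CPM in GATA4-negative cells. It met the rule as higher in GATA4-negative cells when X09_C21 was left out, and was named after its value was seen. Adhesion genes had 1 of 26 (3.85%) past the rule, the integrin gene ITGAV, in 16 of 22 GATA4-positive and 3 of 10 GATA4-negative cells, which did not meet it without X09_C21.

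Contractile genes had 1 of 36 (2.78%) past the rule, beside 2.2% of all genes, the skeletal actin gene ACTA1, in 12 of 22 GATA4-positive cells and 1 of 10 GATA4-negative cells. The smooth muscle actin gene ACTA2 averaged 7408 ± 2626 CPM in GATA4-positive cells and 7043 ± 3947 CPM in GATA4-negative cells, with 1.93 CPM in X09_C21. Keratins and other intermediate filaments had 1 of 9 (11.1%), KRT15, in 11 of 22 GATA4-positive and 1 of 10 GATA4-negative cells, which met the rule in 12 of 32 sets with 1 cell left out and in neither of those without X09_C21 or X09_C38. KRT7, a keratin of simple epithelia, was detected in all 32 cells at 6717 ± 1330 CPM in GATA4-positive cells and 7791 ± 1099 CPM in GATA4-negative cells.

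Of the cell cycle genes, 0 of 41 of S phase and 0 of 48 of G2 and mitosis met the rule, beside 2.2% and 0.15% of all genes. Without X09_C21, 1 of the 41 (SLBP) and 2 of the 48 (NEK2 and ECT2) met it as higher in GATA4-positive cells. By the median difference in share the S phase list leaned furthest of the 17 lists, at 17.3 points beside 7.27 for all genes. Of its 41 measured genes, 33 were detected in a larger share of GATA4-positive cells and 6 in a larger share of GATA4-negative cells. Among growth factor and chemokine genes these counts were 21 and 3 of 25. Over all measured genes the shares were 66.7% and 24.6%, and the counts of both lists are to be read against that lean. FEN1, a nuclease of replication forks, was detected in 18 of 22 GATA4-positive cells and 4 of 10 GATA4-negative cells, and GINS3, a part of the replicative helicase, in 20 of 22 GATA4-positive and 5 of 10 GATA4-negative cells. Both passed the limit on shares and missed the 2-fold limit on means. PCNA and NASP, also S phase genes, were detected in every kept cell of both classes, X09_C21 included. Per cell, GATA4-positive cells detected a median of 26 S phase genes (10 to 41) and GATA4-negative cells 20 (11 to 28). With equal numbers of detected genes the median difference was 12.7 points beside 0, and without X09_C21 it was 14.6 points beside 6.06. The part of genes per cell in this lean was otherwise not tested. The list of G2 and mitosis had a median difference of 7.73 points, and per cell a median of 26 genes in GATA4-positive cells and 25 in GATA4-negative cells.

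Genes of the stress of dissociation and of glycolysis and hypoxia had 0 of 29 and 0 of 27 past the rule, beside 2.2% and 0.15% of all genes, with median differences of 0 and 4.55 points. HSP90AA1, a chaperone, averaged 6280 ± 2069 CPM in GATA4-positive cells and 5579 ± 1803 CPM in GATA4-negative cells. GAPDH, a glycolytic enzyme, averaged 7398 ± 2059 CPM in GATA4-positive cells and 7520 ± 2698 CPM in GATA4-negative cells.

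Genes detected in at least 80% of both classes cannot meet the rule on shares and were compared by their means. Of 1878 such genes, 15 had a mean at least 2 times higher in GATA4-positive cells (0.799%) and 19 in GATA4-negative cells (1.01%). The largest folds towards GATA4-positive cells were those of HPF1, a partner of the poly-ADP-ribose polymerases, at 129 ± 111 CPM in GATA4-positive cells and 37.6 ± 26.9 CPM in GATA4-negative cells, and of IER3IP1, at 126 ± 69.6 CPM in GATA4-positive cells and 39.2 ± 21.1 CPM in GATA4-negative cells. SPTAN1, which encodes a spectrin of the membrane skeleton, ranged from 45.6 to 781 CPM in GATA4-positive cells and from 0 to 202 CPM in GATA4-negative cells. The largest fold the other way was that of RGN, a calcium-binding protein, at 6.45 times higher in GATA4-negative cells. It rested on 10178 CPM in X09_C21, and without that cell the mean was 1.499 times higher in GATA4-positive cells. HES4, a transcriptional repressor downstream of Notch, averaged 149 ± 106 CPM in GATA4-positive cells and 338 ± 238 CPM in GATA4-negative cells, with overlapping ranges of 0 to 455 CPM in GATA4-positive cells and 26.3 to 730 CPM in GATA4-negative cells. The ratio of its means, GATA4-positive over GATA4-negative, was 0.444, and 0.509, inside the 2-fold limit, without X09_C11. TTL, which restores tyrosine to tubulin, and COQ5, an enzyme of ubiquinone synthesis, were 2.94 and 2.58 times higher in GATA4-negative cells.

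The X29 cells took no part in the choice of genes. The median share of cells that detected the 191 genes was 63.6% in GATA4-positive cells, 50% in X29 cells and 10% in GATA4-negative cells. Over all 8676 measured genes it was 54.5% in GATA4-positive cells, 50% in X29 cells and 40% in GATA4-negative cells. The 191 were chosen for the gap between the GATA4 classes, and their median share in X29 cells was that of all genes. Of the 191, 120 had an X29 share nearer to the GATA4-positive share and 71 nearer to the GATA4-negative share. The X29 median over all genes, 50%, is itself nearer to 63.6% than to 10%, so the choice of genes shapes these counts. For genes called higher in GATA4-negative cells, the median share was 27.3% in GATA4-positive, 16.7% in X29 and 70% in GATA4-negative cells. Of those genes, 10 had an X29 share nearer to the GATA4-positive share and 3 nearer to the GATA4-negative share. Such counts were not made over all genes, so they do not show which class the X29 cells resemble. With 6 cells, a share in X29 can only take steps of 1 cell.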

How the data were processed

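Reads were counted per gene in 89 single cells. The authors deposited raw read counts per gene. Per the submitters' processing notes, HISAT2 2.1.0, featureCounts and the GRCg6a build were used; how they were set is not stated there. No molecular identifiers are named, so copies of 1 molecule were counted more than once. The table had 13826 rows: 3 spike-in rows, left out of totals, and 13823 genes, of which 3371 carried an Ensembl identifier alone (6.07% of gene reads in the kept cells) and could not be named.

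From the counts, CPM was computed per cell with pandas 2.3.3 and numpy 2.4.6, and intervals with scipy 1.17.1. The members and lists were chosen with earlier results of these data known. Measured genes exclude the 9 genes that chose the cells. For each direction the text names the 15 genes with a symbol and the largest difference in share that met the size rule and, among genes detected in 80% of both classes, up to 8 with the largest fold. From each of 17 lists it names members that met the rule and up to 2 others with the highest mean. Exceptions are cases chosen after their values were seen: X09_C21, X09_C38, X09_C11, X09_C80, FEN1, GINS3, SLBP, NEK2, ECT2, HAS2, COL4A2, BMP4, BMP5, PECAM1 and the markers given for single cells. MYL2, NPPA, APOA1, HBA1, Pou5f3, PDGFRA and the cells X09_C01, X09_C09, X09_C20, X09_C25 and X09_C44 were also named after their values were seen. Some genes that these rules name are left out of the text. Folds understate differences of low genes. Where no cell of 1 class detected a gene, its fold rested largely on the 1 CPM added to each mean. Such a fold counted for the size rule but is not given in the text. Alternatives changed the limits, the filter, the scaling and the cells used. The comparison was tried on simulated data in which both classes had the same detection rate per gene, apart from genes changed on purpose. Those data did not hold the difference in genes per cell, so they do not bear on how it shapes the counts. No pair of cells had identical counts. Levels are not per length, so genes are not compared with each other.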

Additional observations from a re-analysis of the deposited data

How the results depend on the processing

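As reported, 191 genes were higher in GATA4-positive cells, 13 were higher in GATA4-negative cells, and 68.8% of kept cells detected GATA4. Cells in brackets are GATA4-positive, then GATA4-negative, beside 22 and 10 as reported. A detection limit of 5 CPM gave 322 and 21 genes (27 and 7 cells). A limit of 50 CPM gave 80 and 63 (10 and 13 cells) with a share of 43.5%. Both limits were also applied to GATA4 and the filter genes, so cells changed class. Calling any GATA4 read positive gave 666 and 26 (27 and 5 cells) with a share of 84.4%. Leaving out the CDX2 criterion gave 55 and 0 (23 and 18 cells). The count higher in GATA4-negative cells was 29 with GATA4 at 50 CPM or more, 47 with 4000 genes or more and 32 with no ectoderm gene allowed. Among alternatives chosen after seeing the data, equal numbers of detected genes gave 41 and 38. GATA4-negative cells with at most 2 GATA4 reads gave 403 and 42 (22 and 6 cells), and added X29 cells 63 and 5 (22 and 16 cells). The range of genes per cell common to both classes gave 60 genes higher in GATA4-negative cells. Other scalings, a pseudocount of 10 CPM, no filter on low genes and thinning to 827071 reads gave 164 to 199 and 9 to 13; after thinning 105 and 6 were genes of the reported sets. Leaving out each cell in turn gave 154 to 276 genes, 10 to 21 genes and shares of 67.7 to 70.97%. The difference in share (GATA4-positive minus GATA4-negative) turned for SMPD2 and MXD4 at 5 CPM (1.06 and 1.59 points) and for ASTN2 and KRT15 at 50 CPM (2.31 and -0.77 points). It also turned with any GATA4 read for SMPD2, MXD4, MOCS3 and OSBPL11 (9.63, 0.74, 13.3 and 2.22 points). Alternatives with fewer cells, fewer measured genes or other classes differ by construction; the cause of each difference was otherwise not tested. No paired analysis was possible because all cells belong to 1 pool. With 10 GATA4-negative cells, 1 cell moves a share by 10 points, and by more where an alternative leaves fewer of them.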
